A study of Mus musculus with 48 samples.

Results

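Transcripts of the Toll-like receptors (TLRs) Tlr1, Tlr2, Tlr3, Tlr4, Tlr6, Tlr7, Tlr9 and Tlr13, of their co-receptor Cd14 and of their adaptor Myd88 were followed in the cortex and hippocampus of APP/PS1 mice given MSX-3, which blocks an adenosine receptor (A2AR). The 10 genes were taken by name, as every probe whose accession on the array mapped to one of these symbols, and made up 10 of the 22907 named genes and 17 of the 56605 probes. In the cortex of APP/PS1 mice on H2O, Tlr1, Tlr2, Tlr6, Cd14 and Tlr13 were higher than in WT littermates, by 1.73-fold to 4.63-fold. Of these, Tlr1 and Tlr6 were near background in WT cortex and entered the test through APP/PS1 arrays alone. In the hippocampus Tlr2 and Cd14 were higher on H2O, and Tlr1, Tlr2 and Cd14 on MSX-3. On H2O the Tlr1 groups did not overlap there either, and their difference of 0.97 on the log2 scale did not pass the test. The interaction of genotype and MSX-3 passed it for none of the 10 genes. Tlr3, Tlr4, Tlr9 and Myd88 passed the test in none of the 13 comparisons of level, the brightest Tlr7 probe did not pass it either while a dimmer one did in 2 of them, and no difference between MSX-3 and H2O passed it for any of the 10 genes.

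The animals were heterozygous male APPswe/PS1dE9 mice on a C57Bl6/J background, termed APP/PS1, and WT littermates. The mutated APP and PS1 transgenes sat in a vector driven by the prion protein promoter. Mice drank H2O, or MSX-3 at 0.3 g/L, a prodrug of the A2AR antagonist MSX-2, from 3 months of age (4 months in the text of the series) to 9-10 months, and were perfused with saline before dissection. Cortex and hippocampus were taken from the same 24 mice, so that genotype, treatment and tissue formed 8 groups of 6 arrays (WT on H2O, WT on MSX-3, APP/PS1 on H2O and APP/PS1 on MSX-3 in each tissue).

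On 2 of the 48 arrays, from the cortex of a WT mouse on H2O and of a WT mouse on MSX-3, the scanner software found no spot grid, and 15.8% and 11.4% of probes were well above background, against 55.8% to 75.5% on the other 46. They were left out, which leaves 5 mice in each WT cortex group. Arrays were scanned on 2 days over 7 slides. The first day held 5 of 6 (H2O) and 6 of 6 (MSX-3) APP/PS1 cortex arrays against 2 of 5 and 3 of 5 WT arrays, and 6 of 6 APP/PS1 hippocampus arrays on H2O against 2 of 6 WT arrays, so values within scan days are given below. Prnp, whose promoter drives the transgenes, was higher on every APP/PS1 array than on every WT array, by at least 1.72 (cortex) and 1.40 (hippocampus) on the log2 scale, and App levels overlapped. Tbr1 and Cux2 (cortex) and Prox1, C1ql2, Dsp and Fibcd1 (hippocampus) separated the tissues without overlap, whereas the cortical marker Fezf2 did not.

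TLRs are receptors of innate immunity that recognise conserved molecules of microbes and material released from damaged tissue. Tlr2 pairs with Tlr1 or Tlr6 at the cell surface to sense lipopeptides, Tlr4 senses lipopolysaccharide, and Cd14 hands ligands to both systems. Tlr3, Tlr7, Tlr9 and Tlr13 lie in endosomes and bind nucleic acids. All of them except Tlr3 signal through Myd88, which recruits kinases of the Irak family and leads to NF-kB and Irf transcription factors. In the brain most of these receptors are found mainly in microglia, the resident macrophages. Whole tissue was measured, in which more cells of a type and more RNA per cell cannot be told apart.

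Levels are log2 of the processed signal minus the array's 75th percentile, so that 0 is the level of that percentile and a difference of 1 is a doubling. Probes differ in brightness, and levels of different genes are not compared. A gene is given by its brightest probe among those kept, that is, with at least 4 arrays well above background in some group of the tissue. All 10 genes had such a probe in both tissues (14 of the 17 probes were kept in the cortex and 13 in the hippocampus). Tlr1, Tlr4 and Tlr6 in the cortex and Tlr1 in the hippocampus met this minimum in APP/PS1 groups alone, and with no filter the same genes were called in each genotype comparison as with it. A difference was called at an adjusted p under 0.05 (limma, Benjamini-Hochberg over all kept probes) and a change of at least 1.5-fold. Errors of differences are SE.

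Promoters are shown for some of the members that were called (Tlr2, Tlr1 and Tlr13) and for the adaptor that was not. The windows of Tlr6, which was also called, and the other Tlr1 window are not shown. Windows from 250 bases before to 50 bases after the start of a transcript, from RefSeq on GRCm38.p6, were searched for 7 of the 10 genes (9 windows). No window was at hand for Tlr4 and Tlr7, and Cd14, although called, was left out of the search. The motifs searched on both strands were the NF-kB core GGGNNNNNCC, the interferon response core GAAANNGAAA and the PU.1 core GAGGAA, and capitals mark their matches. The Tlr2 window is chr3:83841559-83841858 (minus strand), that of the upstream Tlr1 start chr5:64933509-64933808 (minus strand), that of Tlr13 chrX:106143025-106143324 (plus strand) and that of Myd88 chr9:119339969-119340268 (minus strand).
Tlr2: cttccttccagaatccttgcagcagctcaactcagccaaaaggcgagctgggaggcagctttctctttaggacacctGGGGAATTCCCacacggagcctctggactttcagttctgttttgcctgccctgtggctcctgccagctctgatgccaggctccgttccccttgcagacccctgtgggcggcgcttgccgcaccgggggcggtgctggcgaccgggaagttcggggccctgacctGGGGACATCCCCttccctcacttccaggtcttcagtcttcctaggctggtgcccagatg
Tlr1: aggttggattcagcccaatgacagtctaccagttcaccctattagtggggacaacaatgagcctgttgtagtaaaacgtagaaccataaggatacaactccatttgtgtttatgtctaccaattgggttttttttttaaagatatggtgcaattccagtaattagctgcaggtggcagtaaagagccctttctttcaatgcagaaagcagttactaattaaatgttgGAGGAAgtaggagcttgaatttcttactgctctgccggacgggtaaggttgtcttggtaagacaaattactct
Tlr13: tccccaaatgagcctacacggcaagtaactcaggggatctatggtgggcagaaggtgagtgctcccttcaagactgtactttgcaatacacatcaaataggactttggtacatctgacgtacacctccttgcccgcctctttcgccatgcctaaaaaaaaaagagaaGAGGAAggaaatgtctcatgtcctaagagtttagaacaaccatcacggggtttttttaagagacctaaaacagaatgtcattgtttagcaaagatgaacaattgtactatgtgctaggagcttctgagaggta
Myd88: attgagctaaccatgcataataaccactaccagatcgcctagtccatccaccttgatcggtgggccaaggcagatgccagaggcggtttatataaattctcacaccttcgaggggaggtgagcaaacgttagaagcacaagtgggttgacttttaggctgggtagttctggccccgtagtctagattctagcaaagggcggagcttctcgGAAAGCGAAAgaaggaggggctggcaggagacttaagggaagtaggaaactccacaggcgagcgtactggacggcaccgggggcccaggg
NF-kB matches stood in the windows of Tlr2, Tlr3 and Tlr6, and in 50.8% of all 32851 windows. The PU.1 core stood in windows of Tlr1, Tlr9 and Tlr13, and in 28.3% of all windows. The Tlr1 window that is not shown held no match to any of the motifs. The interferon response core stood in windows of Tlr6 and Myd88, and in 3.44% of all windows. Each motif was thus present in called and in uncalled members, and a match describes only the letters of the window.

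To find which of these genes differ with genotype, APP/PS1 and WT cortex were compared in mice on H2O. Of the 10 genes, 5 were called, all higher in APP/PS1 mice, where 1.49% of 37680 probes were called and 1.35% were called higher. The groups did not overlap for the same 5 genes, beside 2.84% of the probes with a value on every array. Tlr1 and Tlr6 stand in both counts but met the filter through APP/PS1 groups alone. The median difference of the 10 genes was 0.79 on the log2 scale, against -0.02 over the 16573 named genes tested.

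Tlr2, the shared partner of the lipopeptide receptors, stood at log2 levels of -3.26, -3.64, -3.93, -4.14 and -3.81 in WT cortex. The 6 APP/PS1 cortices lay between -1.67 and -1.40, with a median of -1.57. Every APP/PS1 mouse was far above every WT mouse, and the APP/PS1 mice were close together (SD 0.10, n = 6, against 0.33 in WT mice, n = 5). The difference was 2.21 ± 0.14, or 4.63-fold (adjusted p = 4.02e-06 in limma). It was 1.90 among arrays of the first scan day and 2.42 among those of the second.

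Tlr1, which pairs with Tlr2 to sense triacylated lipopeptides, stood at -5.83, -4.50, -4.67, -6.06 and -4.99 in WT cortex. In APP/PS1 cortex it lay between -3.95 and -3.21, with a median of -3.42. The groups did not overlap although the WT mice were widely spread, and 3 of 5 WT arrays were well above background. The difference was 1.66 ± 0.29, or 3.16-fold on the measured levels (adjusted p = 0.00868), with 1.57 and 1.89 within scan days. The dimmer Tlr1 probe was well above background on 0 of 5 WT and 5 of 6 APP/PS1 arrays, with measured means of -6.55 and -4.27, which makes the level at least 2.82-fold higher in APP/PS1 cortex. It entered the test through the APP/PS1 arrays alone and is given as a description. For this bound each WT array was set at its own signal or at the lowest signal of any probe well above background on that array, whichever was higher.

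Tlr6, the partner of Tlr2 for diacylated lipopeptides, stood at -5.47, -5.63, -6.00, -5.62 and -5.24 in WT cortex and between -4.49 and -3.75 in APP/PS1 cortex, with a median of -4.42. All 6 APP/PS1 mice were above all WT mice, although only 2 of 5 WT arrays were well above background, so that the size of the difference rests on WT values near background. The difference was 1.31 ± 0.16, or 2.48-fold on the measured levels (adjusted p = 0.000776), and 1.30 and 1.16 within scan days. It was 0.45 and no longer called when the background was corrected with normexp instead of by the scanner software.

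Cd14, the co-receptor, stood at -2.05, -2.63, -2.49, -2.51 and -2.47 in WT cortex and between -1.04 and -0.30 in APP/PS1 cortex, with a median of -0.66. The lowest APP/PS1 mouse was well above the highest WT mouse. The difference was 1.79 ± 0.14, or 3.45-fold (adjusted p = 1.97e-05), and 1.70 ± 0.15 on the second Cd14 probe. Within scan days it was 1.67 and 1.98.

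Tlr13, a sensor of bacterial ribosomal RNA, stood at -1.36, -1.16, -1.74, -1.83 and -1.47 in WT cortex and between -0.88 and -0.47 in APP/PS1 cortex, with a median of -0.73. The groups were next to each other without overlap. The difference of 0.79 ± 0.13, or 1.73-fold (adjusted p = 0.00523), was the smallest of the 5 called. It was 0.54 on the first scan day and 0.98 on the second.

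**Figure D1:**
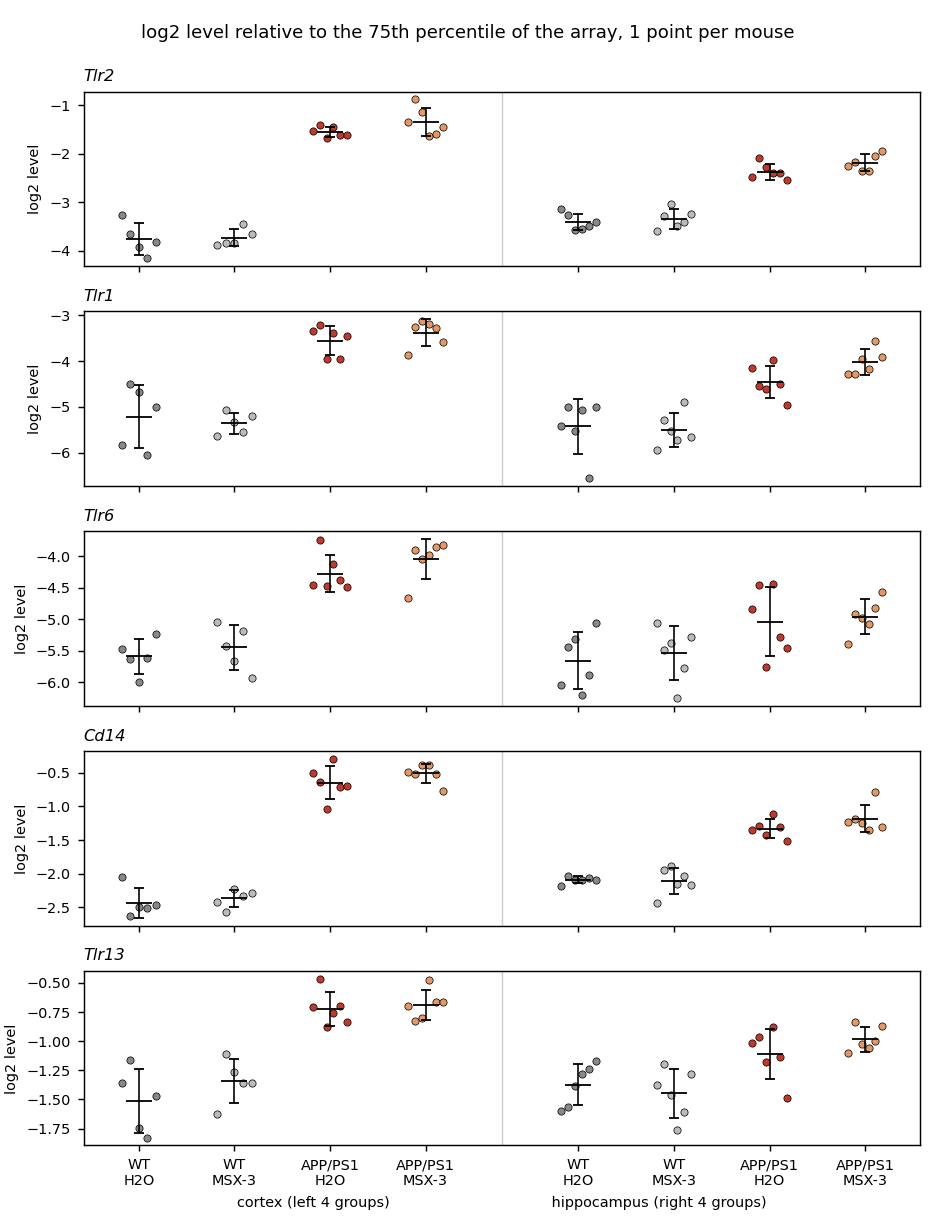
Log2 level relative to the array's 75th percentile (y axis) of Tlr2, Tlr1, Tlr6, Cd14 and Tlr13, brightest probe, in the 8 groups of cortex and hippocampus. Points are mice and bars the mean ± SD (n = 5 in WT cortex, n = 6 elsewhere). In the cortex every APP/PS1 mouse lies above every WT mouse of the same treatment for all 5 genes.

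The single-stranded RNA sensor Tlr7 gave different answers on its probes. The brightest stood at -0.04, -0.88, -1.84, -2.16 and -1.55 in WT cortex and between -0.86 and -0.09 (median -0.55) in APP/PS1 cortex, with overlap. Its difference of 0.78 ± 0.33 was not called (adjusted p = 0.39), and was -0.05 on the first scan day and 1.32 on the second. Without WT mouse 258, the highest of its group, it was 1.10 and called (adjusted p = 0.0484), as it was with array weights (1.23) and as the mean of its kept probes (1.12). The other Tlr7 probe tested lay between -4.63 and -4.14 in WT and between -3.03 and -2.52 in APP/PS1 cortex, and its difference of 1.45 ± 0.13 was called (adjusted p = 4.55e-05).

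The remaining receptors and the adaptor were not called. Tlr4 was dim, well above background on 3 of 5 WT and 4 of 6 APP/PS1 arrays, and differed by 0.74 ± 0.32 (adjusted p = 0.41). Tlr9, the sensor of CpG DNA, differed by 0.16 ± 0.14 (95% interval -0.16 to 0.47), and Tlr3, the sensor of double-stranded RNA, by 0.12 ± 0.15 (-0.22 to 0.45). Myd88 stood at -1.24, -1.35, -1.17, -1.19 and -1.09 in WT cortex and between -1.50 and -1.04 (median -1.30) in APP/PS1 cortex. Its groups overlapped, and the difference of -0.08 ± 0.09 had an interval from -0.28 to 0.12.

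**Figure D2:**
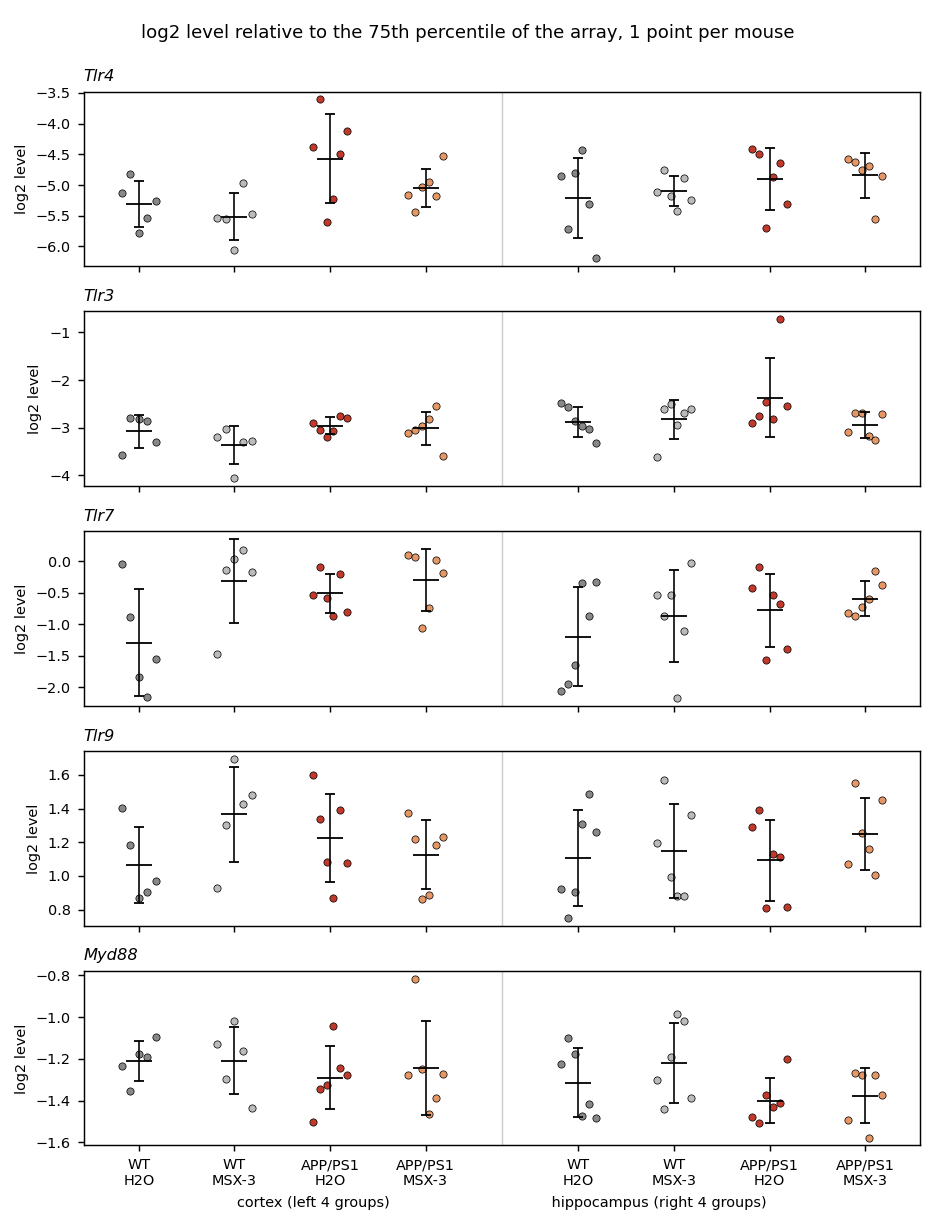
Log2 level relative to the array's 75th percentile (y axis) of Tlr4, Tlr3, Tlr7, Tlr9 and Myd88, brightest probe, in the same 8 groups. Points are mice and bars the mean ± SD. APP/PS1 and WT mice of a treatment overlap in every panel, and the widest group is Tlr7 in WT cortex on H2O (SD 0.85).

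In mice on MSX-3, the same 5 genes were called in the cortex, all higher in APP/PS1 mice, where 1.42% of 37680 probes were called and 1.29% were called higher. The same 5 genes did not overlap, beside 3.02% of the probes with a value on every array. Here too Tlr1 and Tlr6 met the filter through APP/PS1 groups alone. Tlr2 stood at -3.87, -3.83, -3.83, -3.45 and -3.64 in WT and between -1.63 and -0.88 (median -1.40) in APP/PS1 mice, a difference of 2.39 ± 0.15 or 5.22-fold (adjusted p = 2.09e-06). Tlr1 stood at -5.62, -5.07, -5.33, -5.54 and -5.20 in WT and between -3.86 and -3.12 (median -3.26) in APP/PS1 mice, a difference of 1.98 ± 0.16 or 3.93-fold on the measured levels (adjusted p = 1.81e-05), with 2 of 5 WT arrays well above background. On the dimmer Tlr1 probe, with 0 of 5 WT and 5 of 6 APP/PS1 arrays well above background and measured means of -6.70 and -4.28, the level was at least 2.36-fold higher, again as a description. All WT mice were far below all APP/PS1 mice for both receptors.

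Cd14 stood at -2.42, -2.56, -2.23, -2.34 and -2.29 in WT and between -0.77 and -0.38 (median -0.50) in APP/PS1 mice, a difference of 1.86 ± 0.10 or 3.62-fold (adjusted p = 7.71e-07). Tlr6 stood at -5.04, -5.42, -5.66, -5.18 and -5.93 in WT and between -4.67 and -3.83 (median -3.94) in APP/PS1 mice, a difference of 1.40 ± 0.19 (adjusted p = 0.00153), with 3 of 5 WT arrays well above background. Tlr13 differed by 0.66 ± 0.11 (adjusted p = 0.00564), from -1.63 to -1.11 in WT and from -0.83 to -0.47 in APP/PS1 mice. The lower calls were the less firm ones. Tlr13 fell under 1.5-fold without WT mouse 282 (0.58, adjusted p = 0.0101), and neither Tlr6 (0.56) nor Tlr13 (0.55) was called after normexp. On the first scan day, which alone held both genotypes, Tlr2 differed by 2.30, Cd14 by 1.89, Tlr1 by 1.89, Tlr6 by 1.46 and Tlr13 by 0.59.

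Not called on MSX-3 were Tlr4 (0.46 ± 0.19), Tlr3 (0.36 ± 0.21), Tlr9 (-0.24 ± 0.14), the brightest Tlr7 probe (0.02 ± 0.31) and Myd88 (-0.04 ± 0.12). Tlr4 was well above background on 1 of 5 WT and 2 of 6 APP/PS1 arrays. The other Tlr7 probe differed by 1.20 ± 0.29 without overlap (adjusted p = 0.0744).

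The calls in the cortex depended on leaving out the 2 failed arrays. With them included, Cd14 alone was called on H2O (1.57, adjusted p = 0.0352) and no gene on MSX-3. A single slide held both genotypes of the cortex on H2O, with 2 APP/PS1 arrays and 1 WT array, and none on MSX-3. With the slide as a fixed block, Tlr2 (1.75, adjusted p = 0.0155) and Cd14 (1.38, adjusted p = 0.0219) were called on H2O, whereas Tlr1 (2.25), Tlr6 (1.41) and Tlr13 (0.78) had adjusted p-values of 0.0982, 0.0907 and 0.0798.

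In the hippocampus on H2O, Tlr2 and Cd14 were called, both higher in APP/PS1 mice, where 0.393% of 38128 probes were called and 0.351% were called higher. Tlr2 lay between -3.57 and -3.14 (median -3.44) in 6 WT mice and between -2.55 and -2.09 (median -2.40) in 6 APP/PS1 mice, a difference of 1.04 ± 0.10 or 2.05-fold (adjusted p = 0.000317). Cd14 lay between -2.19 and -2.04 (median -2.09) in WT and between -1.51 and -1.11 (median -1.33) in APP/PS1 mice, a difference of 0.76 ± 0.07 or 1.69-fold (adjusted p = 0.000317), and 0.67 ± 0.11 on its other probe. Neither gene overlapped between genotypes. Tlr1 did not overlap either, from -6.54 to -5.00 in WT and from -4.95 to -3.97 in APP/PS1 mice, which makes 3 genes, beside 1.22% of probes. The Tlr1 groups were close to each other, and only 2 of 6 WT and 4 of 6 APP/PS1 arrays were well above background for it. It met the filter through APP/PS1 groups alone. The Tlr1 difference of 0.97 ± 0.26 was not called (adjusted p = 0.18), but was called with all 4 groups of the hippocampus in the fit (adjusted p = 0.0471).

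The other 7 genes were not called in the hippocampus on H2O. Tlr6 differed by 0.62 ± 0.27, Tlr3 by 0.50 ± 0.33, the brightest Tlr7 probe by 0.42 ± 0.36 and Tlr4 by 0.31 ± 0.31. Tlr13 differed by 0.27 ± 0.11, Tlr9 by -0.01 ± 0.15 and Myd88 by -0.09 ± 0.09. For Tlr3 a single APP/PS1 mouse, 325, stood at -0.73, and the next at -2.47. All APP/PS1 arrays on H2O were scanned on the first day, on which Tlr2 differed by 1.11 and Cd14 by 0.76. On the 2 slides with both genotypes, of 1 array each, Tlr2 differed by 1.47 and 0.91 and Cd14 by 0.80 and 0.74. With the slide as a fixed block neither was called (Tlr2 1.19, adjusted p = 0.35; Cd14 0.77, adjusted p = 0.24).

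In the hippocampus on MSX-3, Tlr1, Tlr2 and Cd14 were called, all higher in APP/PS1 mice, where 0.312% of 38128 probes were called and 0.309% were called higher. Tlr1 lay between -5.93 and -4.89 (median -5.59) in WT and between -4.29 and -3.55 (median -4.06) in APP/PS1 mice, a difference of 1.48 ± 0.18 or 2.79-fold (adjusted p = 0.00196). Tlr1 met the filter through APP/PS1 groups alone. Only 2 of 6 WT arrays were well above background for it, and the call was lost after normexp (0.42) and quantile normalization (1.38). Tlr2 lay between -3.59 and -3.03 (median -3.35) in WT and between -2.36 and -1.93 (median -2.21) in APP/PS1 mice, a difference of 1.16 ± 0.11 or 2.23-fold (adjusted p = 0.000373). Cd14 lay between -2.44 and -1.89 (median -2.10) in WT and between -1.35 and -0.78 (median -1.24) in APP/PS1 mice, a difference of 0.93 ± 0.12 or 1.90-fold (adjusted p = 0.00262). With Tlr13 (0.47 ± 0.10, adjusted p = 0.12), 4 genes did not overlap, beside 0.691% of probes.

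The dimmer of the Tlr7 probes tested was called in this comparison (0.73 ± 0.11, adjusted p = 0.0121) and the brightest was not (0.28 ± 0.29). Tlr6 (0.57 ± 0.19), Tlr4 (0.26 ± 0.17), Tlr9 (0.10 ± 0.14), Tlr3 (-0.11 ± 0.19) and Myd88 (-0.16 ± 0.10) were not called either. Within scan days Tlr1 differed by 1.51 and 1.42, Tlr2 by 1.06 and 1.34 and Cd14 by 0.98 and 0.81. With the slide as a fixed block Cd14 was no longer called (0.91, adjusted p = 0.0859), and within the 3 slides with both genotypes it differed by 1.15, 0.88 and 0.70.

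**Figure D3:**
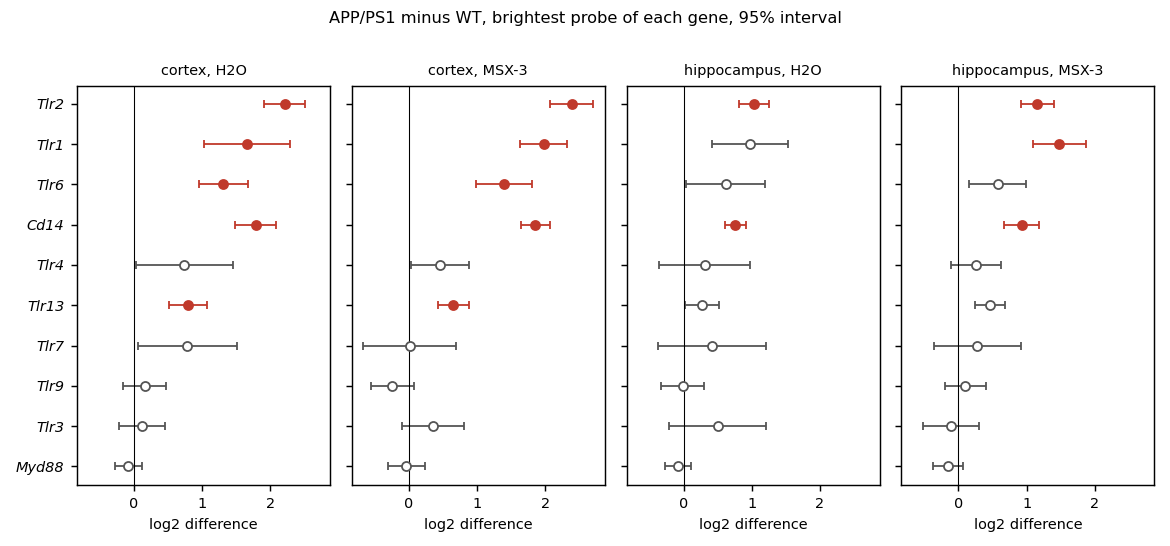
Difference between APP/PS1 and WT mice in log2 level (x axis) of the 10 genes, brightest probe, in both tissues on H2O and on MSX-3, with 95% intervals from limma. Filled red points were called at an adjusted p under 0.05 and at least 1.5-fold. Tlr2 and Cd14 are called in all 4 comparisons, and the interval of Myd88 includes 0 in each.

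Whether the genotype difference depended on the tissue was tested as the difference of both differences. On H2O it was larger in the cortex than in the hippocampus for Tlr2 by 1.17 ± 0.17 (adjusted p = 0.00169) and for Cd14 by 1.02 ± 0.15 (adjusted p = 0.00229), where 0.238% of 39065 probes were called. On MSX-3 it was larger by 1.23 ± 0.18 for Tlr2 (adjusted p = 0.00208) and by 0.93 ± 0.15 for Cd14 (adjusted p = 0.00528), where 0.174% of probes were called. With the mouse number as a replicate block, which pairs the tissues of a mouse, both were called on H2O (Tlr2 1.21, Cd14 1.02). On MSX-3 Tlr2 was called with this block (1.22, adjusted p = 0.0451) and Cd14 was not (0.90, adjusted p = 0.0845). With the failed arrays included neither gene was called on H2O or MSX-3, and with the slide as a fixed block neither was called on MSX-3.

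For the other 8 genes the tissue difference was not called. On H2O it was 0.69 ± 0.40 for Tlr1, 0.69 ± 0.33 for Tlr6, 0.52 ± 0.17 for Tlr13 and 0.01 ± 0.12 for Myd88. Between the tissues of WT mice on H2O no member was called and none was without overlap, beside 15.8% of probes called and 19.1% of probes without overlap. Cd14 was lower in the cortex at an adjusted p of 0.0302 but by less than 1.5-fold (-0.34 ± 0.10), and Tlr2 differed by -0.35 ± 0.15 (adjusted p = 0.11). At an unadjusted p under 0.05 in limma, 2 of the 10 genes differed, beside 13930 of the 39065 probes tested.

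To find whether MSX-3 altered these transcripts, it was compared with H2O within each genotype and tissue. In WT cortex 0 of 37680 probes were called (0.0%), in APP/PS1 cortex 0 (0.0%) and for the interaction of genotype and MSX-3 in the cortex 0 (0.0%), and before adjustment 3255, 2164 and 1756 probes had a limma p under 0.05. In the hippocampus 0 of 38128 probes were called in WT mice (0.0%), 0 in APP/PS1 mice (0.0%) and 0 for the interaction (0.0%), and before adjustment 1895, 1469 and 1852 had a p under 0.05. Of the 10 genes, 1 reached an unadjusted p under 0.05 in WT cortex (Tlr7), 1 in APP/PS1 hippocampus (Tlr1) and 0 in the others.

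In APP/PS1 cortex the levels of the called genes overlapped between H2O and MSX-3. Tlr2 differed by 0.21 (95% interval -0.06 to 0.47), Cd14 by 0.14 (-0.12 to 0.39), Tlr1 by 0.17 (-0.19 to 0.53), Tlr6 by 0.23 (-0.13 to 0.59) and Tlr13 by 0.04 (-0.15 to 0.23). In APP/PS1 hippocampus Tlr2 differed by 0.18 (-0.04 to 0.40), Cd14 by 0.15 (-0.07 to 0.38) and Tlr6 by 0.08 (-0.42 to 0.58). Tlr1 differed there by 0.43 (0.06 to 0.80), with an unadjusted p of 0.0275 and an adjusted p of 0.98 in limma. The dimmer of the Tlr7 probes tested lay there between -3.83 and -3.45 on H2O and between -3.36 and -2.95 on MSX-3. It did not overlap but was not called, and the share of all probes without overlap was not counted for this comparison. In the other groups this probe overlapped between H2O and MSX-3. Myd88 differed by 0.05 (-0.20 to 0.29) in APP/PS1 cortex and by 0.02 (-0.15 to 0.20) in APP/PS1 hippocampus.

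In WT cortex the brightest Tlr7 probe stood at -1.47, -0.14, 0.03, 0.18 and -0.17 on MSX-3, against the H2O values given above, a difference of 0.98 (0.05 to 1.91, adjusted p = 0.57), and its other probe differed by 0.46 (0.04 to 0.87, adjusted p = 0.57). When limma weighted arrays by quality, the difference was 1.61 and called (adjusted p = 0.0208), and 3019 probes were called in place of 0. The interaction was -0.77 (-1.76 to 0.23) for Tlr7 in the cortex, and for Tlr2 0.17 (-0.25 to 0.60) in cortex and 0.12 (-0.19 to 0.43) in hippocampus. For Tlr1 in the hippocampus it was 0.51 and not called, and the smallest adjusted p of the 10 genes there was 0.89 in limma. For markers of red blood cells, 0 of 4 were called between MSX-3 and H2O, and all 4 differences were above 0 in each genotype and tissue, with medians of 1.25 in WT cortex, 0.79 in APP/PS1 cortex, 0.79 in WT hippocampus and 0.81 in APP/PS1 hippocampus. Their mean log2 level ranged from -2.02 to 0.59 on H2O and from -0.93 to 1.66 on MSX-3 in WT cortex, and their part in the differences was not tested.

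**Figure D4:**
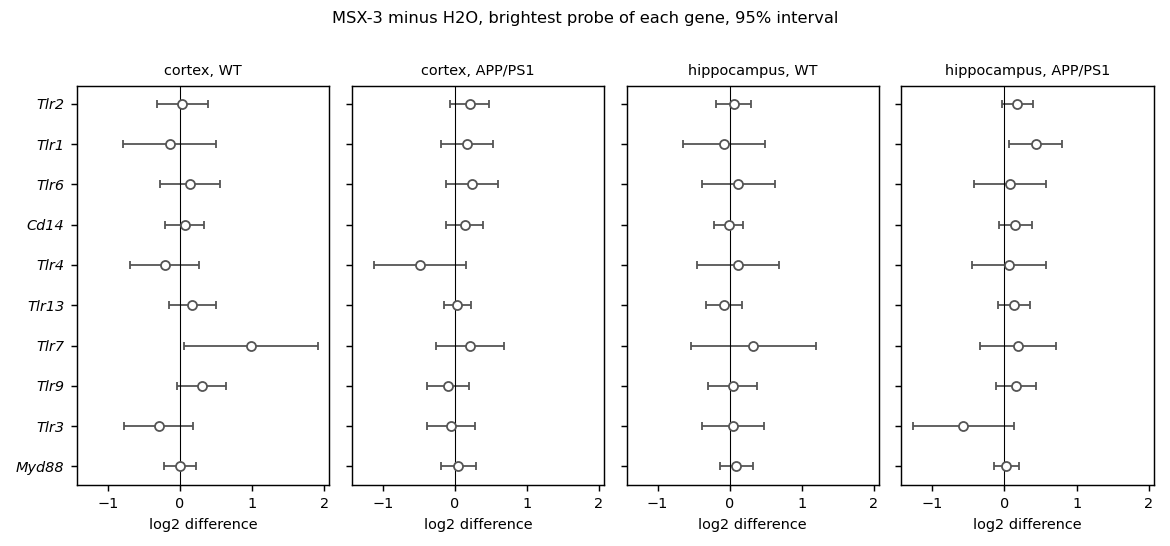
Difference between MSX-3 and H2O in log2 level (x axis) of the 10 genes, brightest probe, in WT and APP/PS1 mice of both tissues, with 95% intervals from limma. No gene is called in any of the 4 comparisons, and the 2 widest intervals are those of Tlr7 in WT cortex and WT hippocampus.

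The rest of the pathway was read from lists by role. Of the 4 other TLRs Tlr12 alone was tested, and it was called higher in APP/PS1 cortex (1.18 ± 0.13 on H2O, 1.15 ± 0.15 on MSX-3) and in hippocampus on H2O (0.71 ± 0.11). Of 7 accessory proteins tested, 2 were called in the cortex on H2O and 2 on MSX-3, Ly86 (1.80 ± 0.12 and 1.90 ± 0.15), which binds the TLR-like protein Cd180, and Unc93b1 (0.85 ± 0.11 and 0.98 ± 0.10), which carries endosomal TLRs out of the endoplasmic reticulum. In the hippocampus Ly86 alone was called (0.69 ± 0.08 and 0.90 ± 0.11). None of 3 adaptors (Tirap, Ticam1 and Sarm1) and none of 12 kinases and ubiquitin ligases was called in any of the 4 genotype comparisons, and the 12 had a median difference of -0.06 in the cortex on H2O.

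Of 7 transcription factors at the end of the pathway, 3 were called higher in the cortex on H2O, Irf7 (1.55 ± 0.19), Irf5 (1.03 ± 0.17) and Nfkb2 (0.76 ± 0.12). On MSX-3, Irf7 (0.92 ± 0.19) and Irf5 (1.19 ± 0.12) were. In the hippocampus Irf7 (1.28 ± 0.18) and Irf5 (0.61 ± 0.09) were called on H2O and 0 of 7 on MSX-3. Of 6 inhibitors tested in the cortex, 1 was called on H2O, Il1rl1 (1.78 ± 0.25), the receptor for interleukin 33, and 0 on MSX-3. The brightest Il1rl1 probe was well above background on no WT cortex array on H2O. The size of that difference thus rests on WT values near background.

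Of 9 inducible target genes tested in the cortex, 4 chemokines were called, all higher. On H2O they were Ccl3 (5.41 ± 0.44), Cxcl10 (4.83 ± 0.53), Ccl4 (4.62 ± 0.22) and Ccl5 (1.46 ± 0.20), and on MSX-3 the differences were 5.84 ± 0.24, 4.34 ± 0.61, 5.66 ± 0.32 and 1.71 ± 0.16. In the hippocampus 3 of 8 were called, with Ccl3 at 3.46 ± 0.32, Ccl4 at 2.84 ± 0.23 and Cxcl10 at 2.51 ± 0.33 on H2O. The cytokine genes Tnf (0.36 ± 0.40) and Il1b (0.20 ± 0.18), chosen after their values were seen, were not called in the cortex on H2O.

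Markers of microglia moved with genotype too. Of 12, 7 were called higher in APP/PS1 cortex on H2O and 7 on MSX-3, with medians of 0.88 and 0.90. In the hippocampus 1 (Laptm5) was called on H2O and 0 on MSX-3, with medians of 0.37 and 0.35. The mean log2 level of the list ranged from 1.82 to 2.0 in WT and from 2.42 to 2.69 in APP/PS1 cortex on H2O, and from 1.87 to 2.09 and from 2.21 to 2.41 in the hippocampus, without overlap in either tissue. On MSX-3 it ranged from 1.69 to 2.03 and from 2.51 to 2.64 in the cortex, and from 1.88 to 2.17 and from 2.13 to 2.53 in the hippocampus, where the genotypes overlapped. The summed linear level in the cortex, carried by the brightest genes, overlapped (247 to 366 in WT and 306 to 364 in APP/PS1 mice). Of 5 tested markers of border macrophages 1 was called (Ms4a7, 0.65 ± 0.13, in the cortex on H2O). None of the 5 blood leukocyte, 4 erythroid, 6 astrocyte, 6 neuronal, 5 oligodendrocyte and 5 endothelial markers tested was called in the 4 genotype comparisons, and the monocyte marker Ccr2 was not well above background on any array.

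The members were therefore also set relative to the microglia list, by subtracting each array's mean over its 12 genes, which differed between genotypes on H2O by 0.68 (cortex) and 0.32 (hippocampus). In the cortex Tlr2 (1.54 ± 0.15), Cd14 (1.11 ± 0.15), Tlr1 (0.98 ± 0.26) and Tlr6 (0.63 ± 0.16) were higher in APP/PS1 mice relative to the list, with adjusted p-values in limma of 0.000105, 0.000107, 0.00352 and 0.00299. Tlr1 and Tlr6 met the cortex filter through APP/PS1 groups alone. Only 3 of 5 and 2 of 5 WT arrays were well above background for them, so both sizes rest partly on WT values near background. The test is against the mean of the list and leaves out the spread among its genes, from -0.52 (Olfml3) to 1.34 (Laptm5), and Tlr6 with its difference of 1.31 lay within that spread. Of all probes 0.78% were above the list and 85.2% passed the test in either direction, nearly all below. Myd88 (-0.76 ± 0.11), Tlr3 (-0.56 ± 0.14) and Tlr9 (-0.52 ± 0.15) were below the list. Tlr13 (0.11 ± 0.13), Tlr7 (0.11 ± 0.33) and Tlr4 (0.06 ± 0.29) did not pass. The median over all probes was -0.71, since a gene that does not differ falls below the list once its mean is subtracted. Being below the list therefore says nothing particular about these members. In the hippocampus Tlr2 (0.72 ± 0.10), Tlr1 (0.66 ± 0.23) and Cd14 (0.44 ± 0.07) were above the list and Myd88 (-0.40 ± 0.10) below. There 0.454% of probes were above and 51.6% passed in either direction, and the median over all probes was -0.34. With so many probes passing in each tissue, the adjustment is milder than for plain levels. On plain levels Tlr1 was not called in this comparison, and it met the filter through APP/PS1 groups alone. This test relative to the list set no minimum fold change. In the hippocampus Tlr1 no longer passed without mouse 255 (0.59, adjusted p = 0.0629), 258 (0.65, adjusted p = 0.0519), 310 (0.64, adjusted p = 0.0572) or 323 (0.58, adjusted p = 0.0716). Tlr9 passed below the list there without mouse 308 (-0.42, adjusted p = 0.0363).

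**Figure D5:**
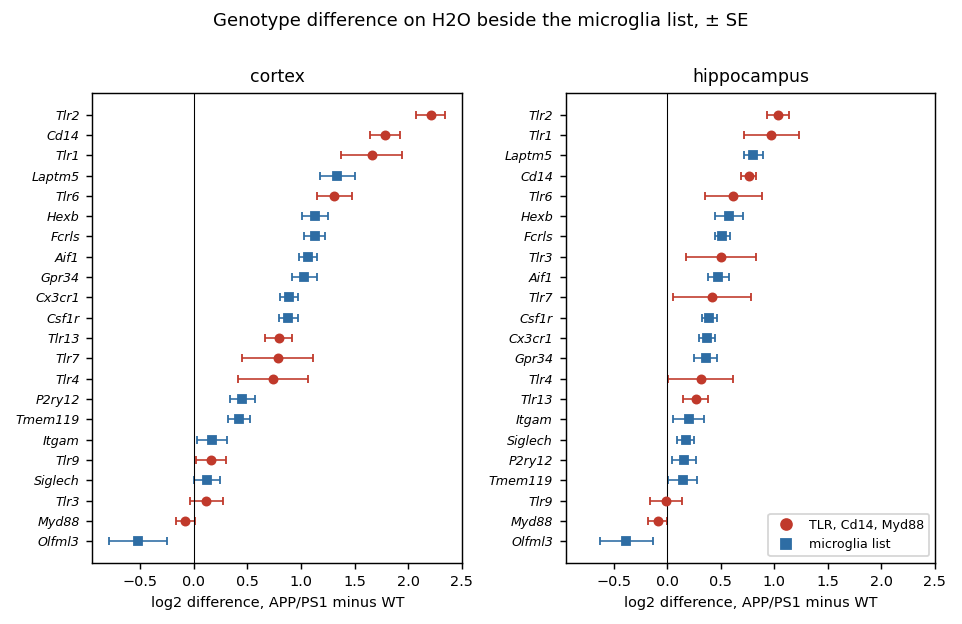
Difference between APP/PS1 and WT mice on H2O in log2 level (x axis, ± SE) of the 10 genes (red circles) and the 12 microglia markers (blue squares) in cortex and hippocampus. In the cortex Tlr2, Cd14 and Tlr1 lie above every microglia marker, the highest of which is Laptm5 (1.34), and Myd88 lies below all but Olfml3 (-0.52). The Tlr1 difference rests partly on WT values near background.

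Over the 8 group means, the genes whose pattern was most like that of a called member, among 16247 genes, are given as a description. For Tlr2 they were Gpr84, Aif1 and Hvcn1 (r = 0.999 each) and for Cd14 Aif1 (r = 0.999), Tent5c (r = 0.998) and Gpr84 (r = 0.998). For Tlr1 they were Plek (r = 0.995), Cd48 (r = 0.991) and Slamf9 (r = 0.991). For Tlr6 they included Bcl3 (r = 0.998) and Ctsd (r = 0.994), and for Tlr13 they were St14 (r = 0.995), Fcgr1 (r = 0.994) and Lgals3bp (r = 0.993). The 8 means fall into WT and APP/PS1 clusters, and come from shared arrays.

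Finally, the cortex and hippocampus of the 12 APP/PS1 mice were compared mouse by mouse, as deviations from the mean of the treatment group, for each of the 10 genes. Tlr6, well above background on 3 of 6 hippocampus arrays on H2O and 5 of 6 on MSX-3, alone passed, with a Pearson r of 0.75 (permutation p = 0.00246, adjusted over 10 relations 0.0246) and a Spearman rho of 0.82 (permutation p = 0.00129, adjusted 0.0129), and r was 0.71 without the 2 mice farthest from the median. Within the 6 mice on H2O r was 0.76 (exact permutation, adjusted p = 0.43), and within the 6 on MSX-3 0.88 (exact permutation, adjusted p = 0.056). After quantile normalization r was 0.50 over the 12 mice and did not pass. Tlr2 had an r of 0.0038 (permutation p = 0.99) and Cd14 of 0.35 (permutation p = 0.22).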

How the data were processed

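RNA (50 ng, Cy3) of cortex and hippocampus was hybridised by the authors to one-colour Agilent arrays of 62976 spots, read with Feature Extraction 10.7.3.1. The deposited intensity values are processed signals with background subtracted by the scanner software and no scaling between arrays; the deposited series table holds the same intensity values (3022848 of 3022848 within a relative tolerance of 1e-06). The grid was designed on mm9. Here log2 signals were centred on each array's 75th percentile, as in the study's methods, control spots and flagged outlier spots were left out, and spots of a probe were averaged. Of the 56605 probes, 32989 had a gene name. Groups were compared with limma 3.58.1 (lmFit, eBayes) in R 4.3.3, with Benjamini-Hochberg adjustment over all kept probes and a fold threshold of 1.5, and the scripts were tested on simulated data. The mice of a group are separate animals, and the number of arrays limits precision.

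Members and lists were chosen with earlier results of these data known. Named were the 10 members, per pathway list up to 4 genes with the largest difference among those called on H2O, and per called member the 3 genes of most like pattern, of which 1 is not reported here. Alternatives were the background correction (normexp, offset 50), normalization, filters, slide, scan day, array weights, samples in the fit, the probe of a gene and each mouse left out. The tissues of a mouse are paired by its number. For 22 mice with both arrays, the deviations of cortex and hippocampus correlated across probes by -0.52 to 0.50 (median 0.038), and 10 were over 0.1. Between different mice the median was 0.0005. For 1 of the 22 mice the hippocampus most like its cortex was its own, so the pairing rests on the mouse numbers. Permutations numbered 100000. Matplotlib 3.10.9 drew the figures.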

Additional observations from a re-analysis of the deposited data

Results flagged for a closer look

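Among the 80 groups of values tested, 11 had a sample set apart from the others by Dixon's criterion, where chance flags about 1 in 20 groups, or 4 of 80. The lone samples stood low for Tlr7 in WT cortex on MSX-3 (-1.47, mouse 282, next -0.17), Cd14 in APP/PS1 cortex on MSX-3 (-0.77, mouse 319), Tlr3 in WT cortex on MSX-3 (-4.05, mouse 304), Tlr6 in APP/PS1 cortex on MSX-3 (-4.67, mouse 266), Cd14 in WT hippocampus on H2O (-2.19, mouse 258), Tlr1 in WT hippocampus on H2O (-6.54, mouse 56) and Tlr4 in APP/PS1 hippocampus on MSX-3 (-5.56, mouse 293). They stood high for Myd88 in APP/PS1 cortex on MSX-3 (-0.82, mouse 267), Cd14 in WT cortex on H2O (-2.05, mouse 258), Cd14 in APP/PS1 hippocampus on MSX-3 (-0.78, mouse 293) and Tlr3 in APP/PS1 hippocampus on H2O (-0.73, mouse 325, next -2.47).

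The genotype difference was larger in the cortex than in the hippocampus for Tlr2 (by 1.17 on H2O and 1.23 on MSX-3) and for Cd14 (by 1.02 and 0.93), each by the test of the difference itself in limma. With the mouse as a replicate block Cd14 on MSX-3 was not called (0.90, adjusted p = 0.0845).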

How the results depend on the processing

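Of the 10 genes, those called numbered 5 in the cortex on H2O, and 1 (Cd14) with the failed arrays included and 2 (Tlr2, Cd14) with the slide as a fixed block, and 6, with Tlr7, with array weights and with the mean of the kept probes. On MSX-3 in the cortex 5 became 3 after normexp and 0 with the failed arrays. In the hippocampus on H2O 2 became 0 with the slide as a fixed block. For the difference between tissues 2 became 0 with the failed arrays on H2O and on MSX-3, and on MSX-3 0 with the slide as a fixed block and 1 with the mouse as a replicate block, which changed no other call. Between tissues of WT mice 0 became 1 (Cd14) with no minimum fold change, and for MSX-3 in WT cortex 0 became 1 (Tlr7) with array weights. The relation of the tissues passed for 1 gene, and for 0 after quantile normalization, within H2O and within MSX-3. The cause was not tested.

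Leaving out each mouse gave 5 to 6 calls in the cortex on H2O (6 without mouse 258), 4 to 5 on MSX-3 (4 without mouse 282), 2 and 3 in the hippocampus, 2 for both tissue differences, and 0 for every MSX-3 comparison, interaction and the tissues of WT mice. Relative to the microglia list, with no minimum fold change, 4 passed above it in the cortex and 2 to 3 in the hippocampus. No called direction reversed under the alternatives run.

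Over all probes, the 561 called in the cortex on H2O became 342 after normexp, 73 with the failed arrays and 1081 with array weights, and the 534 on MSX-3 became 33 with the failed arrays. In the hippocampus 150 on H2O became 93 after normexp, 62 with scan day and 2 with the slide as fixed blocks, and 119 on MSX-3 became 56 after normexp and 45 with the slide. Between tissues 6188 became 3742 after normexp, 2014 with the failed arrays and 10160 with no minimum fold. The tissue differences of 93 and 68 became 43 and 47 with the mouse block, 3 and 5 with the failed arrays, 59 on H2O after quantile normalization, 55 with no filter and 146 with the slide as a random block, and on MSX-3 117 with array weights and 6 with the slide as a fixed block. Leaving out mice moved them to between 42 (without mouse 81) and 98, and between 43 (without mouse 267 or 281) and 92, with Tlr2 and Cd14 called each time. Tlr1, Tlr4 and Tlr6 were near background in WT mice, which limits their differences. In APP/PS1 mice this also held for Tlr4 in both tissues, for Tlr6 in the hippocampus and for Tlr1 in the hippocampus on H2O.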
